A study of Mus musculus with 8 samples.

Results

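Complement genes were examined in the cardiac ventricles of male C57BL/6 mice bearing LLC1 tumors, the Lewis lung carcinoma line that is grown under the skin of syngeneic mice to produce cachexia. The 9 members are the rows of the deposited count table whose gene name is C1qa, C1qb, C1qc, C1ra, C4b, C4a, C3, C3ar1 or Serping1, of 43346 genes listed. All 9 were among the 16111 genes tested. At 7 weeks of age, 4 mice received 1000000 LLC1 cells in PBS and 4 received PBS alone, in each case under the skin of the left flank, and hearts were taken 14 days later. The LLC1 mice are named here by the replicate codes 1-2, 1-3, 1-5 and 2-2 and the PBS mice by 1-1, 1-3, 2-1 and 2-5. The LLC1 line is 1 graft model at 1 time point, whole ventricle was sequenced rather than sorted cells, and no allele was modified in either group.

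Complement is a cascade of plasma and tissue proteins. In the classical pathway C1q, built from the chains encoded by C1qa, C1qb and C1qc, binds its target and activates the proteases C1r and C1s, which cleave C4 and C2 to form the enzyme that splits C3. The C3a fragment signals through the receptor encoded by C3ar1, and the C1 inhibitor encoded by Serping1 blocks C1r and C1s. The liver supplies most circulating complement, C1q comes largely from macrophages, and fibroblasts and endothelial cells transcribe several of the other components.

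Levels are given as counts per 1000000 counts (CPM), scaled with edgeR's TMM factors. Total counts ran from 15342214 to 19747596 in LLC1 mice and from 12480706 to 16192158 in PBS mice. Each gene was tested between groups with the quasi-likelihood test of edgeR and was called at a false discovery rate (FDR) under 0.05 over all genes tested. By this test 8.73% of the genes tested were called, 663 higher and 743 lower in LLC1 mice (4.12% and 4.61%). With scaling to total counts only the calls numbered 225 higher and 793 lower. The values of the 2 groups did not overlap for 17.2% of genes. PBS 1-1 stood apart from the other libraries on the second principal component of log2 CPM, which held 25.2% of the variance, and its values are singled out below. The tissue label was checked on 8 cardiomyocyte markers, led by Myh6 at a mean of 54333 CPM in LLC1 and 45869 CPM in PBS mice. Of these 8, Myh6 alone was called higher by edgeR (FDR = 0.0209, but 0.124 with total-count scaling, and called in 4 of 8 fits without 1 mouse), and Actc1 and Ryr2 had negative log2 fold changes (-0.05 and -0.17).

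C4b and C4a rose in the LLC1 hearts, and the other 7 members did not pass the test. C4b, which encodes complement C4, was 2.23-fold higher and C4a, its close copy, was 1.99-fold higher. The 3 C1q chains and C3ar1 had lower means in LLC1 mice, whereas C1ra, C3 and Serping1 had higher means. Thus 2 of 9 members were called, both higher (22.2%, against the 8.73% of all genes called). The groups did not overlap in 3 of 9 members, C4b and C4a (higher) and C3ar1 (lower), against the 17.2% of all genes without overlap. The median log2 fold change of the 9 members was 0.16, and that of all genes tested was -0.01. Since these genes were picked with results of the series already known, the counts describe them and do not test the list.

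C4b lies on chromosome 17 (mm10 chr17:34728380-34743882, protein coding) and C4a, also known as sex-limited protein, lies 65.2 kb further along (chr17:34809092-34823464, annotated as a processed transcript). The 2 sequences below are the 60-base stretch of the coding part, free of gaps in the alignment, that holds the most substitutions. These are shown because a read pair can be assigned to C4b or C4a only where it covers a difference between the copies. They are written 5′ to 3′ along the transcripts (GENCODE release M21), which run on the minus strand at chr17:34735430-34735489 for C4b and chr17:34816086-34816145 for C4a. Capitals mark the 13 of 60 bases that differ.
C4b: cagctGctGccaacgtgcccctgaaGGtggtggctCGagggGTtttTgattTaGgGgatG
C4a: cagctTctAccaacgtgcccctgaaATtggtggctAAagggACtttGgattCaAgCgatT

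Over their whole length the longest C4b transcript (5379 bases) and the longest C4a transcript (5371 bases) aligned at 5367 bases with 207 substitutions, an identity of 96.14%. The longest stretch without a difference was 433 bases, and 5 stretches were at least as long as the 150-base reads. Of all 150-base windows of the C4b transcript, 8.26% occurred unchanged in C4a. A read from such a window cannot by itself be placed on 1 of the copies, though its mate in the pair may cover a difference. The share of read pairs that cannot be placed was not measured. How the authors' counting treated such pairs is not given in the sources used here.

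C4b was measured at 26.1, 28.4, 25.8 and 27.7 CPM in LLC1 mice 1-2, 1-3, 1-5 and 2-2, and at 6.95, 14.8, 11.8 and 14.5 CPM in PBS mice 1-1, 1-3, 2-1 and 2-5. Every LLC1 mouse was above every PBS mouse, and the LLC1 mice lay close together while PBS 1-1 was the lowest of the 8. Means were 27.0 ± 1.28 and 12.0 ± 3.64 CPM (SD, n = 4 each). The log2 fold change was 1.15 with a standard error of 0.17 (edgeR FDR = 0.00284), and an exact two-sided permutation test gave p = 0.0286, the smallest that 4 against 4 mice allow. C4b was called in each of the 8 fits that left out 1 mouse, with a log2 fold change from 0.98 (without PBS 1-1) to 1.26.

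C4a was less abundant, at 4.90, 4.21, 3.94 and 4.03 CPM in LLC1 mice and 1.12, 2.87, 2.00 and 2.42 CPM in PBS mice, in the same order of mice. The groups did not overlap, and PBS 1-1 was again the lowest, with 13 counts. The log2 fold change was 0.99 with a standard error of 0.22 (edgeR FDR = 0.0180, exact permutation p = 0.0286). The call was lost without LLC1 1-2 (FDR = 0.0553) and without LLC1 1-3 (FDR = 0.0503). When the counts of both copies were added, the sum was 31.0, 32.7, 29.7 and 31.7 CPM in LLC1 mice and 8.07, 17.7, 13.8 and 16.9 CPM in PBS mice, with a log2 fold change of 1.13 (edgeR FDR = 0.0034).

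The proportion of the copies overlapped between the groups. C4b counts exceeded C4a counts by factors of 5.34, 6.75, 6.54 and 6.89 in LLC1 mice and 6.23, 5.15, 5.88 and 6.00 in PBS mice. The mean log2 ratio was higher by 0.13 in LLC1 mice (exact permutation p = 0.286), by 0.21 without LLC1 1-2 (exact p = 0.0571) and by 0.07 without PBS 1-3. C4b was also set against 3 other members within each mouse, a comparison chosen after the values were seen. Its log2 ratio to Serping1 was higher by 1.06 in LLC1 mice, that to C1ra by 1.00 and that to C3 by 0.89. All 4 LLC1 mice were above all 4 PBS mice in each case, which restates the rise of C4b against genes that were not called and is given with no test.

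**Figure D1:**
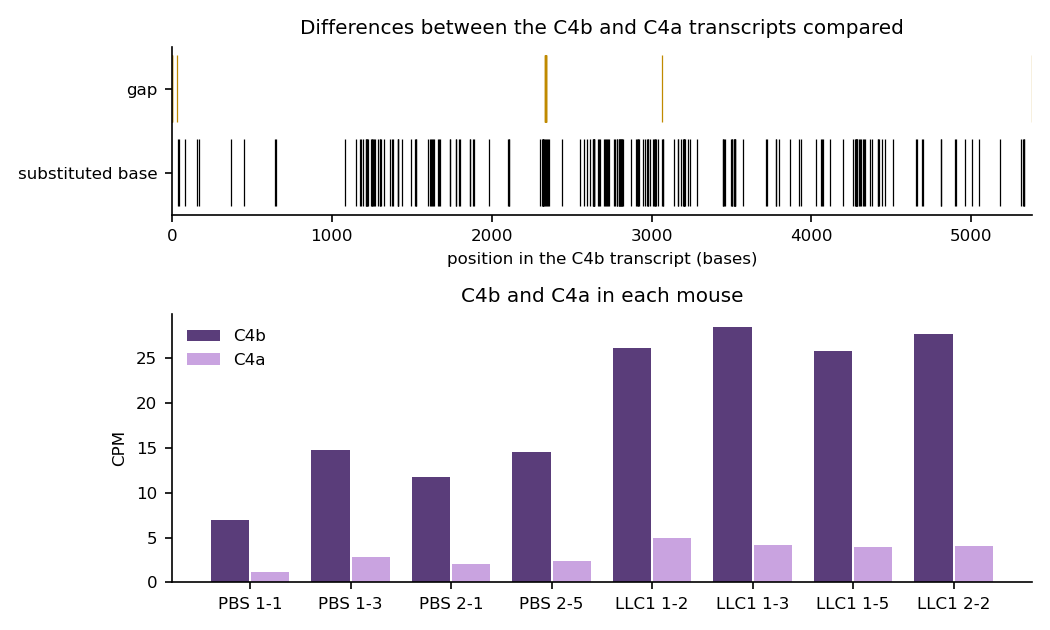
The upper panel marks where the C4b and C4a transcripts differ along the C4b transcript (x axis, position in bases), with substituted bases and gaps on separate rows. The lower panel shows bars of CPM for C4b (dark) and C4a (light) in each of the 8 mice. Differences are spread along most of the transcript with a sparse stretch near its start, and both genes are higher in all 4 LLC1 mice than in any PBS mouse.

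C3, the component on which the complement pathways converge (chr17:57203970-57228136), was the most abundant member by CPM. It was at 173, 322, 251 and 324 CPM in LLC1 mice and 148, 225, 191 and 278 CPM in PBS mice. The groups overlapped, and the lowest mouse of each group was LLC1 1-2 and PBS 1-1. The log2 fold change of 0.34 ± 0.20 (standard error) did not pass the test (edgeR FDR = 0.316, exact permutation p = 0.257).

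C3 was read beside 7 markers of mesothelium, the epithelium that covers the heart's surface, a pairing also chosen after the values were seen. The summed markers were at 12.1, 69.7, 41.9 and 60.9 CPM in LLC1 mice and 19.9, 43.3, 27.1 and 54.2 CPM in PBS mice. Both C3 and the markers were lowest in LLC1 1-2 and PBS 1-1, and the 2 highest mice were LLC1 1-3 and LLC1 2-2 in each case. Upk3b, a uroplakin of mesothelial cells, ranged from 3.04 to 27.6 CPM over the LLC1 mice and from 6.18 to 17.5 CPM over the PBS mice. None of the 7 markers was called by edgeR, DESeq2 or limma-voom, and 0 had an unadjusted edgeR p under 0.05. How far the amount of mesothelium in a sample bears on C3 was not tested.

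C1qa, C1qb and C1qc encode the chains of C1q and lie within 18.7 kb of each other on chromosome 4 (chr4:136895917-136898803, chr4:136880129-136886187 and chr4:136889804-136893065). C1qa was at 48.5, 35.6, 38.2 and 32.8 CPM in LLC1 mice and at 29.8, 48.9, 49.1 and 50.6 CPM in PBS mice. LLC1 1-2 was high within its group and PBS 1-1 low within its own, so that the groups overlapped. Without PBS 1-1 the log2 fold change of C1qa went from -0.21 ± 0.16 (standard error, edgeR FDR = 0.441) to -0.36 (FDR = 0.0486).

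C1qb was measured at 46.9, 35.1, 37.9 and 34.8 CPM in LLC1 mice and at 40.2, 47.5, 45.1 and 53.5 CPM in PBS mice. C1qc was measured at 47.4, 36.5, 41.1 and 34.3 CPM in LLC1 mice and at 35.0, 43.8, 44.0 and 51.1 CPM in PBS mice. The 3 chains ranked the mice alike at the top of each group, with LLC1 1-2 the highest LLC1 mouse and PBS 2-5 the highest of all 8. Neither passed the test, with log2 fold changes of -0.27 ± 0.11 for C1qb (edgeR FDR = 0.140) and -0.13 ± 0.12 for C1qc (FDR = 0.526). In the PBS 1-1 library C1qa was at 0.740 of the C1qb level, whereas the ratio was between 0.944 and 1.09 in the other 7 libraries. The ratio of C1qc to C1qb lay between 0.987 and 1.09 in LLC1 mice and between 0.870 and 0.977 in PBS mice, without overlap, which is given as a description.

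The chains of C1q are a product of macrophages, and some markers of these cells were lower in the LLC1 hearts. All 16 macrophage and monocyte markers examined had negative log2 fold changes (median -0.45), also with DESeq2. Of these, 6 of 16 were called lower (37.5%, against 4.61% of all genes), namely Mrc1, Cx3cr1, Ccr2, Cd14, Ptprc and Lyz2. The calls of Ptprc and Lyz2 were kept in each of the 8 fits without 1 mouse, those of Mrc1 in 4, Cx3cr1 and Ccr2 in 3 and Cd14 in 2, each time including the fit without PBS 1-1. Cx3cr1 also lost its call with limma-voom, robust empirical Bayes and the covariate for the replicate code (FDR up to 0.0675), and Cd14 with that covariate (FDR = 0.0506). The summed markers were at 323, 292, 279 and 273 CPM in LLC1 mice and at 316, 377, 436 and 428 CPM in PBS mice, with LLC1 1-2 above PBS 1-1. In whole ventricle, fewer cells of a type and less RNA per cell cannot be told apart. Divided by these markers, the sum of the 3 chains was 0.441, 0.367, 0.420 and 0.373 in LLC1 mice and 0.332, 0.372, 0.317 and 0.362 in PBS mice. Their means were 0.400 ± 0.0362 and 0.346 ± 0.0256 (SD, n = 4), the groups overlapped, and the difference was not tested.

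**Figure D2:**
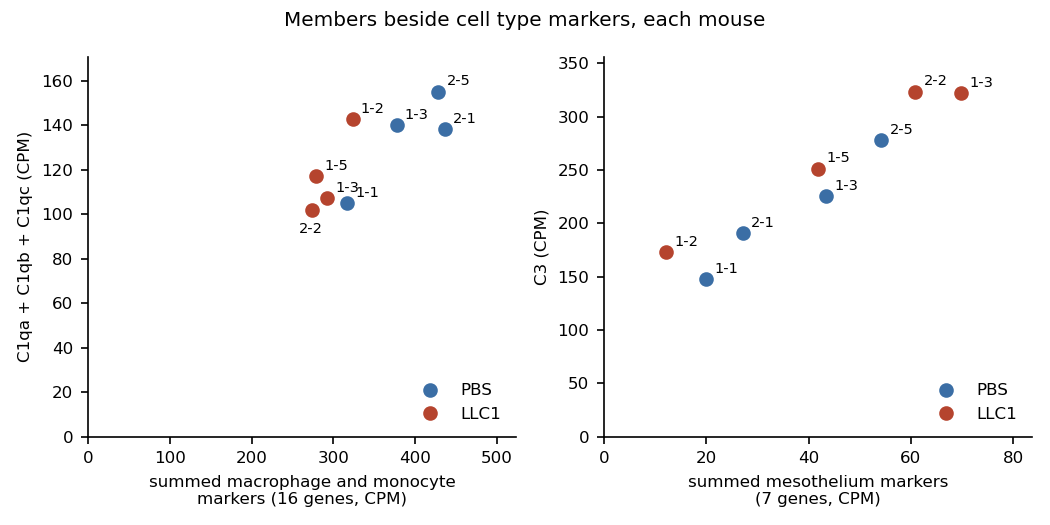
Each point is 1 mouse, labelled by its replicate code, red for LLC1 and blue for PBS. The left panel plots the summed CPM of C1qa, C1qb and C1qc against the summed CPM of 16 macrophage and monocyte markers, and the right panel plots C3 CPM against the summed CPM of 7 mesothelium markers. On the left PBS 1-1 lies among the LLC1 mice, and on the right the mice of both groups follow a common order, with LLC1 1-2 and PBS 1-1 at the lower end.

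C3ar1, the receptor for the C3a fragment (chr6:122847138-122856161), was at 6.35, 5.14, 4.43 and 5.69 CPM in LLC1 mice and at 6.43, 6.38, 9.004 and 8.50 CPM in PBS mice. All LLC1 values were below all PBS values, though LLC1 1-2 was separated from PBS 1-3 by very little. The log2 fold change was -0.50 ± 0.16 (standard error) and missed the threshold (edgeR FDR = 0.0663, exact permutation p = 0.0286). It passed with DESeq2 (FDR = 0.0476) and without PBS 1-1 (edgeR FDR = 0.0309).

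C1ra, which encodes the protease C1r (chr6:124512632-124523440), was at 18.2, 16.4, 14.2 and 16.7 CPM in LLC1 mice and 11.5, 14.1, 15.7 and 14.9 CPM in PBS mice. The groups overlapped through LLC1 1-5, and PBS 1-1 was the lowest. Its log2 fold change of 0.21 ± 0.11 was not called (edgeR FDR = 0.245). Of the 150-base windows of its longest transcript, 26.3% occur unchanged in the neighbouring copy C1rb, which was at 4.06 ± 0.373 CPM in LLC1 and 3.10 ± 0.468 CPM in PBS mice (SD, n = 4) and was not called either (FDR = 0.142). None of the other members outside the C4 pair shared such a window with another gene.

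Serping1, which encodes the C1 inhibitor (chr2:84765387-84775444), was at 141, 133, 128 and 130 CPM in LLC1 mice and 100, 122, 132 and 122 CPM in PBS mice. The LLC1 mice lay close together, PBS 2-1 fell among them and PBS 1-1 was well below. The log2 fold change of 0.16 ± 0.08 was not called (edgeR FDR = 0.241).

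**Figure D3:**
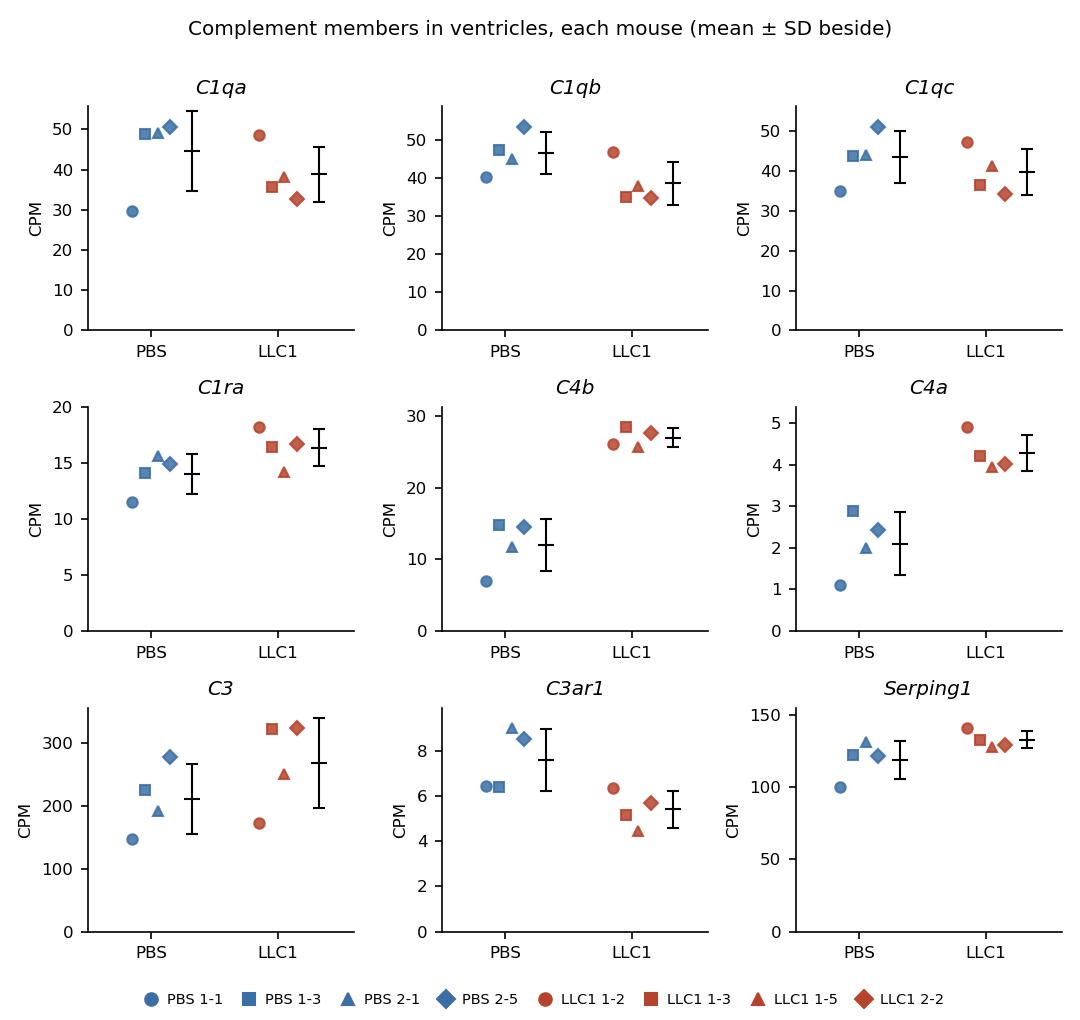
Each panel shows 1 member, with CPM on the y axis from 0, PBS mice in blue and LLC1 mice in red. A symbol shape stands for 1 mouse within its group, and the bars beside the points are the mean ± SD of 4 mice. C4b and C4a separate upward and C3ar1 downward in LLC1 mice, and PBS 1-1 (blue circle) is the lowest of the 8 mice in 6 of 9 panels.

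PBS 1-1 was the lowest of the 8 mice for C1qa, C1ra, C3, C4a, C4b and Serping1, and PBS 2-5 was the highest for C1qa, C1qb and C1qc. The library of PBS 1-1 also had the fewest total counts (12480706) and the lowest TMM factor (0.935). Whether these bear on its values was not tested. Without PBS 1-1, 4 members were called, while the share of all genes called went from 8.73% to 11.9% (5.56% higher and 6.38% lower). C4b and C4a were still higher, at log2 fold changes of 0.98 (edgeR FDR = 0.000102) and 0.81 (FDR = 0.00923), and C1qa and C3ar1 were lower.

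Fibroblasts and endothelial cells are among the sources of C4, C1r and the C1 inhibitor in tissue, and edgeR called none of their markers examined here higher. Of 10 fibroblast markers 4 were called lower (40.0%, against 4.61% of all genes), namely Col1a1, Col1a2, Col3a1 and Lum. DESeq2 called 6 lower and limma-voom 3, and of the 8 fits without 1 mouse Col1a1 was called in 1 (without PBS 1-1), Col1a2 in 4 and the others in each. There was 1 higher at an unadjusted p under 0.05 (Gsn, which DESeq2 called), while 8 of the 10 had negative log2 fold changes. The fibroblast sum was between 2566 and 2898 CPM in LLC1 and between 2518 and 3206 CPM in PBS mice. A large part of this sum was Gsn alone, at 1436 to 1751 CPM in LLC1 and 1197 to 1449 CPM in PBS mice. Of 8 endothelium markers edgeR called 2 lower (Kdr and Cldn5, 25.0%, against 4.61% of all genes), DESeq2 4 and limma-voom 2. There were 0 higher at an unadjusted p under 0.05 or by DESeq2 and limma-voom. Their sums were 940 to 1070 CPM in LLC1 and 1024 to 1365 CPM in PBS mice. Summed C4b, C1ra and Serping1 over the fibroblast markers was 0.0613 to 0.0672 in LLC1 and 0.0470 to 0.0546 in PBS mice, and over the endothelium markers 0.163 to 0.194 and 0.111 to 0.126. Neither pair of ranges overlapped, which in part restates the call of C4b higher and of markers in both denominators lower. It is given with no test. Of 10 neutrophil markers 3 passed the filter on low counts, and S100a8 and S100a9 were called higher (66.7%, against 4.12% of all genes), while Csf3r was not (log2 fold change 0.48, FDR = 0.389). S100a9 was called in each of the 8 fits without 1 mouse, and S100a8, at 2 to 18 counts a mouse, in 1 (without PBS 1-1). The neutrophil sum was small, at 3.52 to 6.65 CPM in LLC1 and 1.24 to 3.26 CPM in PBS mice, and Elane had no count in any mouse. The part of these cells in the complement values was not tested.

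On a scale that also corrects for gene length (CPM per kb of the deposited length), the members differed widely. In PBS mice Serping1 was at 51.2 ± 5.76, C1qa at 42.9 ± 9.55, C1qb at 42.8 ± 5.06 and C3 at 41.0 ± 10.7 CPM per kb (SD, n = 4), and neighbours in this order did not differ beyond their spread. C1qc followed at 22.5 ± 3.40 and C1ra at 5.10 ± 0.656 CPM per kb. The deposited length of C1qc, 1931 bases, exceeds its longest transcript, which holds 1054 windows of 150 bases, so its value depends on the length used. The lowest were C4b at 2.11 ± 0.639, C3ar1 at 1.76 ± 0.318 and C4a at 0.339 ± 0.121 CPM per kb, of which C4b and C3ar1 overlapped within 1 SD. In LLC1 mice the first 5 were again Serping1 (57.2 ± 2.52), C3 (52.0 ± 13.9), C1qa (37.3 ± 6.57), C1qb (35.5 ± 5.21) and C1qc (20.6 ± 2.99). C4b, at 4.74 ± 0.224 CPM per kb, then lay just below C1ra (5.95 ± 0.595) and clear of C3ar1 (1.25 ± 0.189) and C4a (0.688 ± 0.0698).

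**Figure D4:**
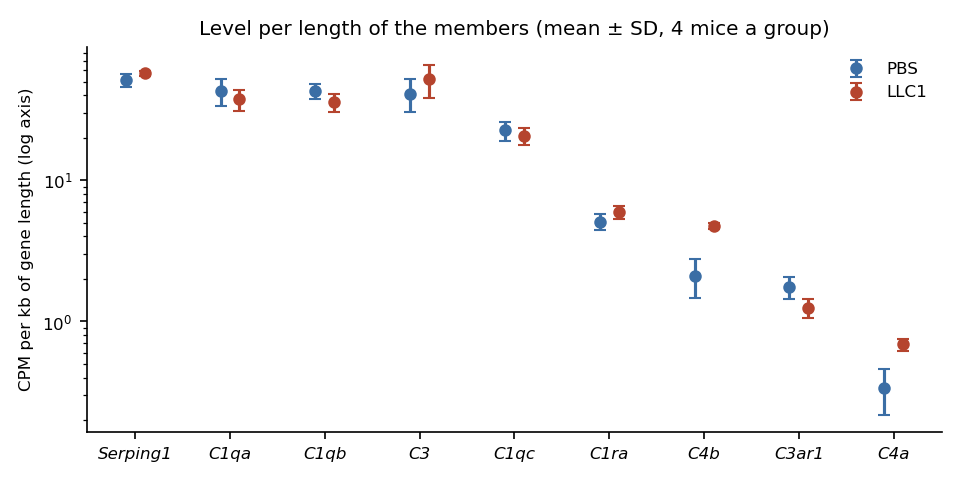
Points are the mean level of each member in CPM per kb of gene length, on a log axis, with bars of ± SD over 4 mice (PBS in blue, LLC1 in red), ordered by the PBS mean. C4b sits beside C3ar1 in PBS mice and close to C1ra in LLC1 mice, and Serping1, C1qa, C1qb and C3 lie together at the top.

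Of 57 complement genes on the 7 lists by role, 40 passed the filter on low counts and 8 were called, 2 higher (C4a and C4b) and 6 lower. Among the 31 tested that are not members, edgeR called 0 higher and 6 lower (19.4%, against the 4.61% of all genes called lower). At an unadjusted p under 0.05, 3 were higher and 8 lower, and DESeq2 called 1 higher (Clu) and limma-voom 0. Of the 17 that were not tested, C8a, C8b, C9, Fcnb and Mbl1 had no count in any mouse. There 3 counts would correspond to 0.152 to 0.240 CPM on total counts, before TMM scaling.

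The receptors, through which cells sense complement fragments or bind coated particles, all leaned the same way. Each of the 7 tested had a negative log2 fold change (median -0.53), also with DESeq2, and 3 were called lower (42.9%, against 4.61% of all genes). The macrophage and monocyte markers (16 of 16) and the endothelium markers (7 of 8) had negative log2 fold changes as well, and the part of these cells in the receptor values was not tested. Cd93, a surface protein of endothelial cells first described as a C1q receptor, was at 82.1, 91.7, 80.0 and 95.4 CPM in LLC1 mice and at 165, 170, 155 and 165 CPM in PBS mice. The groups were far apart, with a log2 fold change of -0.91 ± 0.07 (edgeR FDR = 0.000142). C5ar1, the C5a receptor of myeloid cells, was at 4.08 ± 0.574 CPM in LLC1 and 5.99 ± 0.519 CPM in PBS mice (SD, n = 4, log2 fold change -0.56, FDR = 0.0266). Itgax, the alpha chain of complement receptor 4, was low throughout, at 8 to 32 counts a mouse, and had a log2 fold change of -1.08 (FDR = 0.0422). The call of Cd93 was kept in each of the 8 fits without 1 mouse, that of C5ar1 in 3 (without LLC1 1-2, PBS 1-1 or PBS 2-1) and that of Itgax in 1 (without PBS 1-1). Itgax also lost its call with total-count scaling and with the covariate for the replicate code (FDR up to 0.0593). Itgam and Itgb2, the chains of complement receptor 3, had log2 fold changes of -0.26 (FDR = 0.249) and -0.53 (FDR = 0.138).

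Among 12 regulators tested 2 were called lower (16.7%, against 4.61% of all genes). Cd55, which speeds the decay of the C3-cleaving enzymes at the cell surface, was at 10.9 ± 0.731 CPM in LLC1 and 15.9 ± 0.828 CPM in PBS mice (SD, n = 4, log2 fold change -0.54, edgeR FDR = 0.00439), and was called in each of the 8 fits without 1 mouse. Vtn, the gene of vitronectin, an inhibitor of the terminal complex, was at 30.8 ± 1.88 and 39.0 ± 4.42 CPM (log2 fold change -0.34, FDR = 0.0320), and of these 8 fits was called only in that without PBS 1-1. Clu, the gene of clusterin, was the most abundant complement gene by CPM, at 651 ± 55.5 CPM in LLC1 and 550 ± 36.6 CPM in PBS mice (log2 fold change 0.25, FDR = 0.0675). The membrane inhibitor Cd59a had a log2 fold change of 0.05 (FDR = 0.626).

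The partners of C4 in the classical pathway were not called. C1s1, the protease that cleaves C4, was at 27.1 CPM in LLC1 and 29.5 CPM in PBS mice on average (log2 fold change -0.13, edgeR FDR = 0.464). C2, the other cleavage target of C1s, was at 5.61 and 4.95 CPM (log2 fold change 0.18, FDR = 0.716). Cfb, its counterpart in the alternative pathway, was at 5.35 and 4.14 CPM (log2 fold change 0.37, FDR = 0.141). In the lectin pathway edgeR, DESeq2 and limma-voom called 0 of 5 genes tested (1 at an unadjusted p under 0.05), and in the terminal pathway C7 was called lower (9.94 ± 1.65 and 14.4 ± 2.87 CPM, log2 fold change -0.54, FDR = 0.0493), a call kept in 3 of the 8 fits without 1 mouse (without LLC1 2-2, PBS 1-1 or PBS 2-5) and lost with limma-voom, total-count scaling and the covariate for the replicate code (FDR up to 0.0600). Without PBS 1-1, where 11.9% of all genes were called and 6.38% called lower, 12 complement genes were called, C1qa, C3ar1, Fcna and Itgb2 being added on the lower side.

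**Figure D5:**
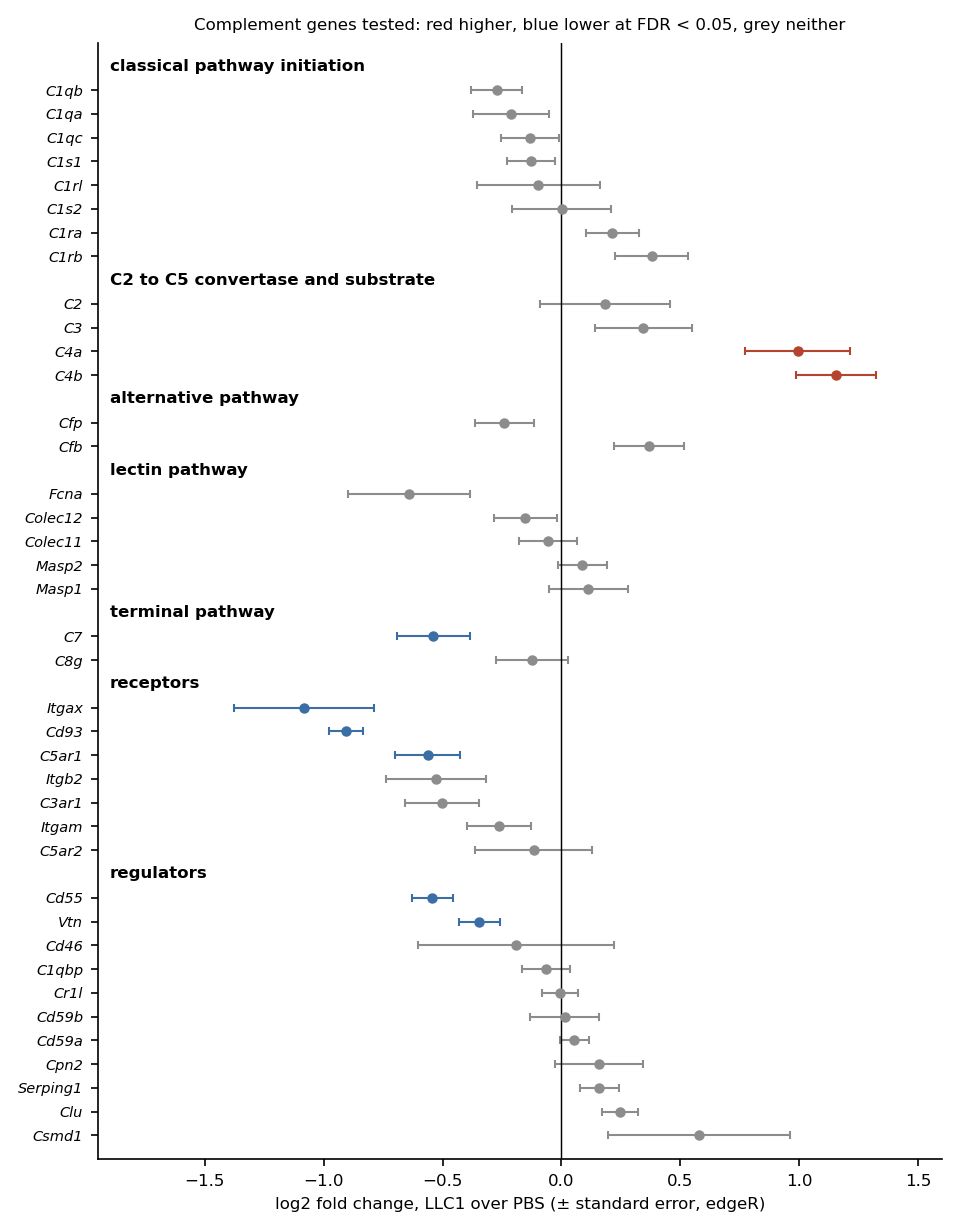
Points are the log2 fold changes (LLC1 over PBS) of the complement genes tested and reported here, with bars of ± 1 standard error, grouped by role. Red marks genes called higher, blue those called lower and grey those not called. C4a and C4b are the only genes called higher in the edgeR test, and the 7 receptors all lie left of 0.

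For 3 patterns among the members, the genes most like them in log2 CPM over the 8 mice were sought among 11361 genes with a mean of at least 5 CPM, and the pattern of C3 was added after the values were seen. The correlations are descriptions over 8 libraries that share their scaling and group labels. For the mean of the 3 C1q chains the closest were Ap1s1 (Pearson r = 0.96), Atox1 (0.94) and Arpc1b (0.93). For C4b they were Gm27406 (r = 0.99), Tpra1 (0.99) and Gga1 (0.98), which were themselves called higher in LLC1 mice (log2 fold changes of 0.62, 0.32 and 0.31). For Serping1 they were Mir3082 (r = 0.99), Gm21988 (0.97) and Usp4 (0.97), and for C3 they were Atxn2l, Smarca4 and Myrf (each 0.98), none of which was called. The members themselves were left out of this search, and no other complement gene was among the closest 3 of any of these patterns.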

How the data were processed

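Ventricular RNA of 8 mice was sequenced as 150-base paired-end reads from TruSeq RNA v2 libraries. The authors aligned the reads to mm10 and deposited raw counts per gene, not normalized. The submitters' processing notes name CASAVA, STAR and featureCounts without versions. The annotation release and strand setting are not given in the sources used here. The treatment label gave each mouse its group. Only the code 1-3 occurs in both groups, on different animals, so that the comparison was unpaired. Whether the mice were littermates or handled in batches is not stated.

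Counts were tested with edgeR 4.0.16 in R 4.3.3 (filterByExpr, TMM, glmQLFit and glmQLFTest) with Benjamini-Hochberg adjustment over 16111 genes. Exact permutation tests were two-sided over 70 arrangements of log2 CPM (prior count 2). Of 200 genes changed in data simulated for LLC1 against PBS (15960 genes), edgeR recovered 170, with 12 false calls. Alternatives were DESeq2 1.42.0, limma-voom (limma 3.58.1), total-count scaling, other filters (at least 1 count in any mouse, at least 10 in every mouse), robust empirical Bayes, a covariate for the replicate code's first number, C4a and C4b summed, and each mouse left out. Sequences were compared with Biopython 1.88 using GENCODE M21 transcripts. Cd55b and Adgre1 of the lists are Daf2 and Emr1 in the file.

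The members, gene lists and naming rule (all members, list genes past the threshold or without overlap, and the 3 genes most like each pattern) were chosen with earlier results of these data known. For 1 listed gene no value is reported, though it remains in the totals per list. Genes of the lists named beyond that rule were chosen after their values were seen.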

Additional observations from a re-analysis of the deposited data

Results flagged for a closer look

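Of 50 groups of 4 values examined, 2 held a mouse far from the other 3, and chance alone would be expected to give about 1 in 20. C1qa was at 29.8 CPM in PBS 1-1, while the other PBS mice were between 48.9 and 50.6 CPM. The ratio of C3 to the summed mesothelium markers was 14.3 in LLC1 1-2, while the other LLC1 mice were between 4.62 and 6.01.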

How the results depend on the processing

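Over 16 alternatives (15 for C4a) no member changed direction. C4b was called in each of them, and the 2 alternatives in which C4a lost its call and the 2 in which C3ar1 gained one are given beside those genes. The count of members called was 1 with C4a and C4b summed, 3 with DESeq2 (2 higher, 1 lower), and from 1 to 4 with 1 mouse left out (1 without LLC1 1-2 or LLC1 1-3, 4 without PBS 1-1). The count of complement genes called was from 3 (without LLC1 1-3) to 12 (without PBS 1-1), and from 6 to 10 under the other alternatives. Over all genes the calls ran from 542 (without PBS 1-3) to 1949 (without PBS 1-1), against 1406 with all mice. The log2 ratios of C4b to Serping1, C1ra and C3, chosen after the values were seen, ranged with 1 mouse left out from 0.90 to 1.17, from 0.85 to 1.12 and from 0.71 to 0.98, higher in LLC1 mice each time. No paired analysis was possible because the 2 groups share only 1 replicate code, carried by different animals. Counts of C4a were as low as 13 in a mouse and 5 complement genes had none, which limits what this depth can show for the least abundant genes.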

Other observations

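Lists outside complement gave the following counts. Of 18 acute phase genes, which encode secreted plasma proteins and some of their intracellular regulators, 9 were tested and 3 were called higher (33.3%, against 4.12% of all genes), namely Lcn2 (log2 fold change 0.99), Cp (0.40) and Cebpd (0.87). DESeq2 called 5 higher, adding Cebpb and Serpina3n, and limma-voom 3, and 0 were lower by these tools or at an unadjusted p under 0.05. Of the 8 fits without 1 mouse, Lcn2 was called in 8, Cp in 7 (not without LLC1 1-3) and Cebpd in 1 (without PBS 1-1). Fga, Fgb, Fgg, Saa1 and Saa2, which are made chiefly in liver, had no count in any mouse. Of 17 interferon-gamma response genes 15 were tested, all 15 with negative log2 fold changes in edgeR and DESeq2, and 3 were called lower (20.0%, against 4.61% of all genes), namely Irf8 at -0.68, Irgm1 at -0.39 and Cxcl9 at -1.70. Of the fits without 1 mouse, Cxcl9 was called in 8, Irf8 in 4 (without LLC1 1-2, LLC1 1-5, PBS 1-1 or PBS 2-5) and Irgm1 in 2 (without LLC1 1-2 or PBS 1-1). The 1 adipocyte marker tested of 7 (Fabp4) and the 1 lymphocyte marker tested of 8 (Ighm) were not called by edgeR, DESeq2 or limma-voom. Neither had an unadjusted p under 0.05. Fabp4 ranged from 458 to 705 CPM over all mice, while the other adipocyte markers fell under the filter on low counts. Whether Fabp4 reports on adipocytes here was not tested.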
